A study of Mus musculus with 6 samples.

Results

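Near-projecting neurons are excitatory cells of cortical layers 5 and 6 whose axons stay close to the cell body, unlike pyramidal tract and corticothalamic cells of the same layers, which send axons out of the cortex. In mouse cell taxonomies they are told apart by what they express, and 5 of the genes used for this are described here: Tshz2, Slc17a8, Trhr, Sla2 and Lypd1. They were taken by symbol from 32531 gene rows, and all 5 were measured. The genes have unlike roles. Tshz2 encodes a teashirt zinc-finger transcription factor, Slc17a8 the vesicular glutamate transporter VGLUT3, Trhr a receptor for thyrotropin-releasing hormone that couples to Gq, Sla2 an adaptor known from lymphocytes, where it dampens antigen receptor signalling, and Lypd1 a GPI-anchored surface protein of the LYNX family that binds nicotinic receptors.

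The libraries came from the cerebral cortex of adult mice, with no treatment given in the labels. Both groups carry the transgene of the line ES1299 (Htr4-EGFP/Rpl10a), in which Htr4, a serotonin receptor gene, drives a ribosomal protein tagged with EGFP, so the cells that can be captured are those in which this driver is active. The IP group (n = 3) is the RNA on ribosomes captured with antibodies against EGFP, and the input group (n = 3) is the RNA labelled as input from the same line and tissue. The labels do not say whether replicates came from separate animals, so a p-value covers no more than the spread among these libraries, and that spread may be technical. A replicate number marks a sequencing lane shared by 1 IP and 1 input library, and all IP libraries carry one index and all inputs another, so index and group cannot be told apart.

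IP libraries held 53147173 to 67559533 reads on genes and inputs 37696125 to 52360452. A count of 3 reads corresponds to 0.0430 to 0.0538 CPM in IP libraries and 0.0596 to 0.0817 CPM in inputs. CPM are counts scaled to a common TMM-adjusted library total, and differences are log2 fold changes, IP over input, with their standard error (SE). Intervals and floors cover counting error only. Htr4 itself had 18.6, 22.6 and 18.4 CPM in IP replicates 1 to 3, against 8.17, 7.65 and 7.82 CPM in input replicates 1 to 3 (log2 fold change 1.34, SE 0.16, edgeR adjusted p = 5.7e-05). In these bulk libraries, more cells of a type, more RNA per cell and a larger share of that RNA on ribosomes cannot be told apart.

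All 5 near-projecting genes were higher in IP than in input at an adjusted p under 0.05 in edgeR's quasi-likelihood test. Of all 16506 tested genes, 21.3% were called higher, 23.4% lower and 44.8% in either direction by this test. Lypd1, Trhr and Sla2 rose most, with fitted folds of 3.77, 3.896 and 4.23. Tshz2 rose 1.96-fold and Slc17a8 1.56-fold. A log2 fold change of at least 1 was reached by 3 of the 5 members and by 4.42% of all tested genes as called increases. For each of the 5 members, every IP library lay above every input, as it did for 26.5% of tested genes, while 29.5% lay wholly below. The median log2 fold change was 1.91 over the 5 members and -0.015 over all tested genes.

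**Figure D1:**
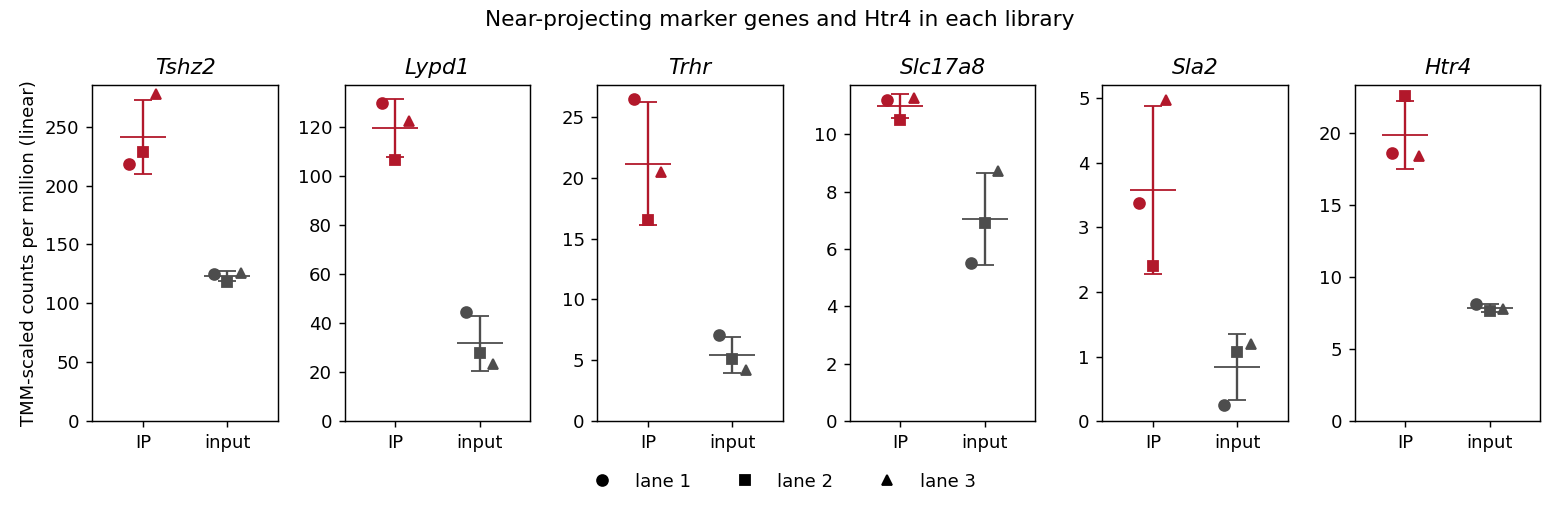
TMM-scaled CPM (linear axes starting at 0) of the 5 near-projecting genes and the driver gene Htr4 in each IP and input library, with the group mean (horizontal line) and SD (error bar, n = 3) and 1 symbol per sequencing lane. In every panel the 3 IP libraries lie above the 3 inputs; the gap is narrowest for Slc17a8, with 10.5 CPM in the lowest IP library and 8.72 CPM in the highest input.

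The sequence before the start of transcription is shown for the members that RefSeq's GRCm38.p6 table matched, which were 4 of the 5, all but Trhr. All of these genes were called higher in IP, and the windows let their start regions be compared. Each window of 300 bases is printed 5′ to 3′ on the gene's strand, from 250 bases before to 50 bases after the annotated start, and capitals mark any match on either strand to 7 motifs. These are the TATA box TATAAA, the CCAAT box, the GC box GGGCGG, the cyclic AMP response element TGACGTCA, the homeodomain core pair TAATTA, and the E-box in its forms CAGCTG and, as the other form searched, CACGTG. The Tshz2 window is chr2:169632259-169632558 on the plus strand, that of Slc17a8 chr10:89621200-89621499, that of Sla2 chr2:156887172-156887471 and that of Lypd1 chr1:125912879-125913178, the last 3 on the minus strand. Slc17a8 and Lypd1 have further annotated starts, and the one farthest upstream is shown. The starts are those of RefSeq, and those of GENCODE M21 can differ. The Tshz2 window ends before base 169633013, where GENCODE M21 places the start of the gene. For Lypd1, GENCODE M21 places the start at base 125913101, inside the printed window and upstream of the RefSeq start.
Tshz2: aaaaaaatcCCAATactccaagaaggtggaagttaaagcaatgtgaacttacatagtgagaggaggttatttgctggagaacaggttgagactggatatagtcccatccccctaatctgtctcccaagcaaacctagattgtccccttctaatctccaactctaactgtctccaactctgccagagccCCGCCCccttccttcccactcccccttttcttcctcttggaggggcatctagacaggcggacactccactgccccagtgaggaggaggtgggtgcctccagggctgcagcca
Slc17a8: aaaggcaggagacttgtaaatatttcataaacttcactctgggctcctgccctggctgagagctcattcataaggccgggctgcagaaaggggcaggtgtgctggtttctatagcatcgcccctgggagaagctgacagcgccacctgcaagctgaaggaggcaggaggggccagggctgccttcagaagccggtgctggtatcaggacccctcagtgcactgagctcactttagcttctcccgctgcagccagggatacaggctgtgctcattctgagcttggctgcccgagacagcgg
Sla2: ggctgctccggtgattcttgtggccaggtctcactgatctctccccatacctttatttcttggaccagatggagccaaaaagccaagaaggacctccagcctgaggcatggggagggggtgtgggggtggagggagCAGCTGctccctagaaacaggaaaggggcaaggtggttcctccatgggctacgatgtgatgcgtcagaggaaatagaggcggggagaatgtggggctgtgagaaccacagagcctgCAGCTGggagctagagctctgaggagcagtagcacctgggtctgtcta
Lypd1: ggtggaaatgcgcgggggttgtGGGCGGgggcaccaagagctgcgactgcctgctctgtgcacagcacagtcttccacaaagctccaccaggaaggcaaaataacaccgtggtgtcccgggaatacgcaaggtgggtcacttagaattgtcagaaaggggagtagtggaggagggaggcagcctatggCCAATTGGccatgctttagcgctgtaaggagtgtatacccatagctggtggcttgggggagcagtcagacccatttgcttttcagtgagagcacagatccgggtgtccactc

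No motif of the 7 was present in all 4 windows. The Tshz2 and Lypd1 windows each held GGGCGG, found in 35.7% of the 32851 windows in the table, and CCAAT, found in 37.4%. In the Lypd1 window CCAAT matched on both strands at overlapping positions. The Sla2 window held the E-box CAGCTG at 2 positions, a motif in 16.3% of windows, and the Slc17a8 window held none of the 7. The G and C content was 52.0% for Tshz2, 58.0% for Slc17a8, 57.7% for Sla2 and 56.7% for Lypd1, against a median of 52.7% over all windows. The matches describe these windows only.

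Tshz2, the transcription factor gene, was the most abundant member. In GRCm38 with GENCODE M21 it spans 438804 bases of the plus strand of chromosome 2, from 169633013 to 170071816. It had 218, 228 and 277 CPM in IP replicates 1 to 3, against 125, 118 and 126 CPM in input replicates 1 to 3. The inputs lay close together and the groups did not overlap (log2 fold change 0.97, SE 0.10, edgeR adjusted p = 2.2e-05). Within lanes 1, 2 and 3 the log2 fold change was 0.80, 0.95 and 1.14. The exons of the long noncoding gene Gm26883 on the opposite strand cover 65.2% of the exon bases of Tshz2, and with no stated strand setting the reads of the pair cannot be told apart.

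The other teashirt genes, Tshz1 and Tshz3, are related zinc-finger factors. Tshz1 had 42.5, 24.6 and 29.0 CPM in IP replicates 1 to 3, against 29.7, 25.8 and 26.1 CPM in inputs (log2 fold change 0.24, edgeR adjusted p = 0.32). Its groups overlapped, and IP replicate 1 stood above the rest: without it the log2 fold change was -0.010. Tshz3 averaged 64.4 ± 1.68 CPM in IP and 66.7 ± 6.87 CPM in input (SD, n = 3 each, log2 fold change -0.050, edgeR adjusted p = 0.73), and its sign turned with scaling by total gene counts (0.046). Per kilobase of exon, Tshz2 made up 60.0%, 64.5% and 67.7% of the summed level of the 3 teashirt genes in IP replicates 1 to 3, against 48.5%, 49.5% and 47.4% in inputs. The share was thus higher in every IP library than in any input.

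Slc17a8 was the member that rose least. VGLUT3 loads glutamate into synaptic vesicles and is known from neurons that also release another transmitter, among them cholecystokinin interneurons, striatal cholinergic interneurons and serotonergic cells of the raphe. The gene occupies 89574020 to 89621253 of chromosome 10, minus strand. It had 11.2, 10.5 and 11.3 CPM in IP replicates 1 to 3, against 5.501, 6.90 and 8.72 CPM in input replicates 1 to 3. The IP libraries were close together, and the inputs spread over a wider range below them (log2 fold change 0.64, SE 0.21, edgeR adjusted p = 0.025). Within lanes the log2 fold change was 1.02, 0.61 and 0.37. The call was lost without input replicate 1 (log2 fold change 0.51, edgeR adjusted p = 0.079) and without input replicate 2 (0.62, edgeR adjusted p = 0.084).

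Slc17a7 and Slc17a6 encode VGLUT1 and VGLUT2, the main transporters of cortical and of thalamic and other subcortical glutamatergic neurons. Slc17a6 rose 1.86 on the log2 scale (SE 0.13, edgeR adjusted p = 1.1e-06), with 104, 122 and 149 CPM in IP replicates 1 to 3, against 35.9, 32.4 and 34.8 CPM in inputs. Slc17a7 averaged 549 ± 99.4 CPM in IP and 434 ± 45.2 CPM in input (SD, n = 3 each) and did not pass (log2 fold change 0.34, edgeR adjusted p = 0.05005). It passed in edgeR with the replicate block (adjusted p = 0.00515), total gene counts (0.0113), no filter (0.0164) or without IP replicate 1 (0.00268), and also in DESeq2 (0.0350) and limma-voom (0.0433). Per kilobase of exon, Slc17a8 made up 2.32%, 1.601% and 1.70% of the summed level of the 3 transporters in IP replicates 1 to 3, against 1.47%, 1.61% and 1.93% in inputs. These shares overlapped between the groups.

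Markers of the other cells known to use VGLUT3 moved in different ways, and their part in the Slc17a8 result was not tested. Of 9 interneuron genes, 4 were higher and 1 was lower. The vasoactive intestinal peptide gene Vip rose 3.34 and Adarb2 0.77 on the log2 scale (edgeR adjusted p = 6.9e-07 and 0.00082), while the cannabinoid receptor gene Cnr1 fell by 0.55 (edgeR adjusted p = 0.00085). The cholecystokinin gene Cck rose 0.53 on the log2 scale (edgeR adjusted p = 0.0015). It had 409, 481 and 536 CPM in IP replicates 1 to 3, against 325, 310 and 352 CPM in inputs. The most abundant of them, the GABA-synthesis gene Gad2, averaged 698 ± 165 CPM in IP and 611 ± 45.3 CPM in input (SD, n = 3 each, edgeR adjusted p = 0.29), and passed without IP replicate 2 (log2 fold change 0.35, edgeR adjusted p = 0.024). The summed level of the list was 1511 to 1890 CPM in IP and 1400 to 1504 CPM in input.
Of 6 cholinergic genes, 5 were tested and 4 were higher, led by the transcription factor genes Isl1 (log2 fold change 2.85, edgeR adjusted p = 0.00027) and Lhx8 (1.99, edgeR adjusted p = 0.034). The call of Lhx8 was lost without IP replicate 1 or any 1 input library (edgeR adjusted p = 0.289 without IP replicate 1, and 0.0584, 0.119 and 0.111 without input replicates 1, 2 and 3), with the replicate block (0.0559) and in limma-voom (0.103). Chat, which makes acetylcholine and is named here as the defining gene, had 11, 111 and 90 reads in IP libraries and 29, 26 and 39 in inputs and did not pass (edgeR adjusted p = 0.57). Slc18a3 and Slc5a7, also on the cholinergic list, rose 1.99 and 1.23 on the log2 scale (edgeR adjusted p = 0.014 and 0.021). The summed cholinergic level was 14.7 to 19.3 CPM in IP and 4.24 to 5.88 CPM in input. Of the 6 serotonergic genes, the serotonin transporter gene Slc6a4 had 0 reads in all 6 libraries, and Slc18a2 was the only call, lower in IP (log2 fold change -0.66, edgeR adjusted p = 0.019). That call was lost without IP replicate 1, input replicate 2 or input replicate 3 (edgeR adjusted p = 0.0618, 0.0557 and 0.0836). The summed serotonergic level was 8.03 to 8.37 CPM in IP and 11.5 to 12.98 CPM in input. Most of it was Slc18a2, which alone averaged 6.87 CPM in IP and 10.9 CPM in input.

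Trhr was among the most strongly raised members. Its ligand, thyrotropin-releasing hormone (TRH), acts through Gq and phospholipase C and raises the excitability of many neurons. Trhr occupies 44196135 to 44235912 of chromosome 15, plus strand, and no other annotated gene overlaps it. It had 26.5, 16.5 and 20.5 CPM in IP replicates 1 to 3, against 7.05, 5.07 and 4.22 CPM in input replicates 1 to 3. The lowest IP library lay far above the highest input (log2 fold change 1.96, SE 0.24, edgeR adjusted p = 5.3e-05). The within-lane log2 fold change was 1.91, 1.70 and 2.28. Its log2 fold change ranked 129 from the top among the 16506 tested genes.

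Of 13 genes of the TRH system, a list that includes Trhr, 6 were higher and 0 lower, with a median log2 fold change of 0.25. Among all tested genes, 21.3% were called higher and 23.4% lower. The hormone precursor gene Trh was scarce: it had 198, 85 and 106 reads in IP libraries and 20, 28 and 6 in inputs, or 3.55, 1.22 and 1.55 CPM against 0.545, 0.556 and 0.123 CPM. Every IP library was above every input (log2 fold change 2.37, SE 0.68, edgeR adjusted p = 0.014), and the call was lost without IP replicate 1 (edgeR adjusted p = 0.072). The other receptor gene, Trhr2, had 0.395, 0.516 and 1.304 CPM in IP and 0.953, 1.25 and 0.798 CPM in input, with overlapping groups (edgeR adjusted p = 0.61). Trhde, the enzyme that degrades TRH outside cells, averaged 45.4 ± 6.96 CPM in IP and 43.5 ± 3.20 CPM in input (SD, n = 3 each, edgeR adjusted p = 0.74). The peptide-processing genes Cpe and Pam rose by little (log2 fold changes 0.31 and 0.34, edgeR adjusted p = 0.010 and 0.012). Both calls ended without input replicate 2 (edgeR adjusted p = 0.059 and 0.063). Qpct, which makes the pyroglutamate end of TRH, and the phospholipase gene Plcb1 were called with log2 fold changes of 0.79 and 0.25 (edgeR adjusted p = 0.044 and 0.035). Qpct lost its call without each of 5 libraries, with adjusted p up to 0.16, and Plcb1 without each of 4, with adjusted p up to 0.17. Both calls were also lost with RLE factors (edgeR adjusted p = 0.0502 for Qpct and 0.0528 for Plcb1) and with the filter of 1 CPM in 3 libraries (0.0528 and 0.0751), and that of Qpct with limma-voom (0.0780). The G protein gene Gnaq did not pass (log2 fold change -0.13, edgeR adjusted p = 0.35), and without IP replicate 2 it was lower in IP (-0.27, edgeR adjusted p = 0.024).

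Sla2 was the scarcest member and the one with the widest spread. It occupies 156872457 to 156887192 of chromosome 2, minus strand. It was covered by 188, 167 and 339 reads in IP replicates 1 to 3, against 9, 54 and 58 reads in input replicates 1 to 3. These are 3.37, 2.39 and 4.97 CPM in IP and 0.245, 1.07 and 1.19 CPM in input. The groups did not overlap, and input replicate 1 lay far below the other inputs: the exact 95% Poisson interval of its level, 0.112 to 0.465 CPM, ended below those of the other inputs. The log2 fold change was 2.08 (SE 0.55, edgeR adjusted p = 0.0092) and 1.68 without input replicate 1 (edgeR adjusted p = 0.018). Within lanes it was 3.73, 1.15 and 2.06. The gene Rab5if on the opposite strand, listed under an older symbol, shares 23.6% of the exon bases of Sla2, and its own level was 4.79 to 5.65 CPM in IP and 4.93 to 6.45 CPM in input.

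The related adaptor gene Sla went the other way. Sla had 6.83, 4.04 and 7.62 CPM in IP replicates 1 to 3, against 13.7, 10.7 and 11.6 CPM in inputs, with no overlap (log2 fold change -0.96, SE 0.24, edgeR adjusted p = 0.0074). Of 10 genes for the SLAP adaptors and their partners, 9 were tested, 2 were higher and 2 lower. Besides Sla2, the kinase gene Fyn rose 0.52 on the log2 scale (edgeR adjusted p = 0.00093). Besides Sla, the microglial receptor gene Csf1r fell by 3.73 (edgeR adjusted p = 0.00011).
Sla2 is best known from T and B cells, and 13 lymphocyte genes were read beside it. Of these, 6 had 0 reads in all IP libraries, and only 3 were tested. Cd4 was the one call, higher in IP (log2 fold change 1.20, edgeR adjusted p = 0.00041). All 13 summed to 20.5 to 27.5 CPM in IP and 11.4 to 15.4 CPM in input, and Cd4 alone averaged 23.7 ± 3.79 CPM in IP and 10.3 ± 2.21 CPM in input (SD, n = 3 each). Without Cd4, left out after its values were seen, the other 12 summed to 0.946 to 2.21 CPM in IP and 2.54 to 2.70 CPM in input. The sum thus lay higher in IP with Cd4 and lower without it, and the part of lymphocytes in the Sla2 result was not tested.

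Lypd1 was the second most abundant member. Its product, also called Lynx2, binds nicotinic acetylcholine receptors and, in mouse, dampens their function. It occupies 125867622 to 125913101 of chromosome 1, minus strand. Lypd1 had 129.9, 107 and 123 CPM in IP replicates 1 to 3, against 44.6, 27.8 and 23.1 CPM in input replicates 1 to 3. The groups stood well apart, and input replicate 1 was the highest input (log2 fold change 1.91, SE 0.20, edgeR adjusted p = 2.0e-05). Within lanes the log2 fold change was 1.54, 1.94 and 2.41. Gpr39 on the opposite strand shares 17.1% of the exon bases of Lypd1 and had 0, 1 and 0 reads in IP libraries and 0, 4 and 0 in inputs.

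Of 10 LYNX family genes, a list that includes Lypd1, 7 were tested, 4 were higher and 1 lower, with a median log2 fold change of 0.37. Ly6h, which also acts on nicotinic receptors, rose 1.23 on the log2 scale, with 46.2, 28.4 and 28.9 CPM in IP replicates 1 to 3, against 18.8, 14.1 and 11.3 CPM in inputs (SE 0.23, edgeR adjusted p = 0.00098). Lynx1, the most abundant tested member of the family per kilobase of exon, averaged 507 ± 97.6 CPM in IP and 370 ± 43.4 CPM in input (SD, n = 3 each, log2 fold change 0.46, edgeR adjusted p = 0.016). Its call was lost without IP replicate 3, input replicate 1 or input replicate 3 (edgeR adjusted p = 0.0515, 0.0716 and 0.0504). Lypd6 fell to 15.6, 15.3 and 20.3 CPM in IP replicates 1 to 3, against 44.7, 42.8 and 50.7 CPM in inputs (log2 fold change -1.43, SE 0.15, edgeR adjusted p = 1.6e-05). Lypd6b overlapped between groups (log2 fold change 0.09, edgeR adjusted p = 0.76).
Of 9 nicotinic receptor genes, 7 were tested, 3 were higher and 1 lower. Chrna5 rose 2.07, Chrna4 0.76 and Chrnb2 0.63 on the log2 scale (edgeR adjusted p = 0.00058, 0.0010 and 0.0046), and Chrnb3 fell by 1.81 (edgeR adjusted p = 0.0047).

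**Figure D2:**
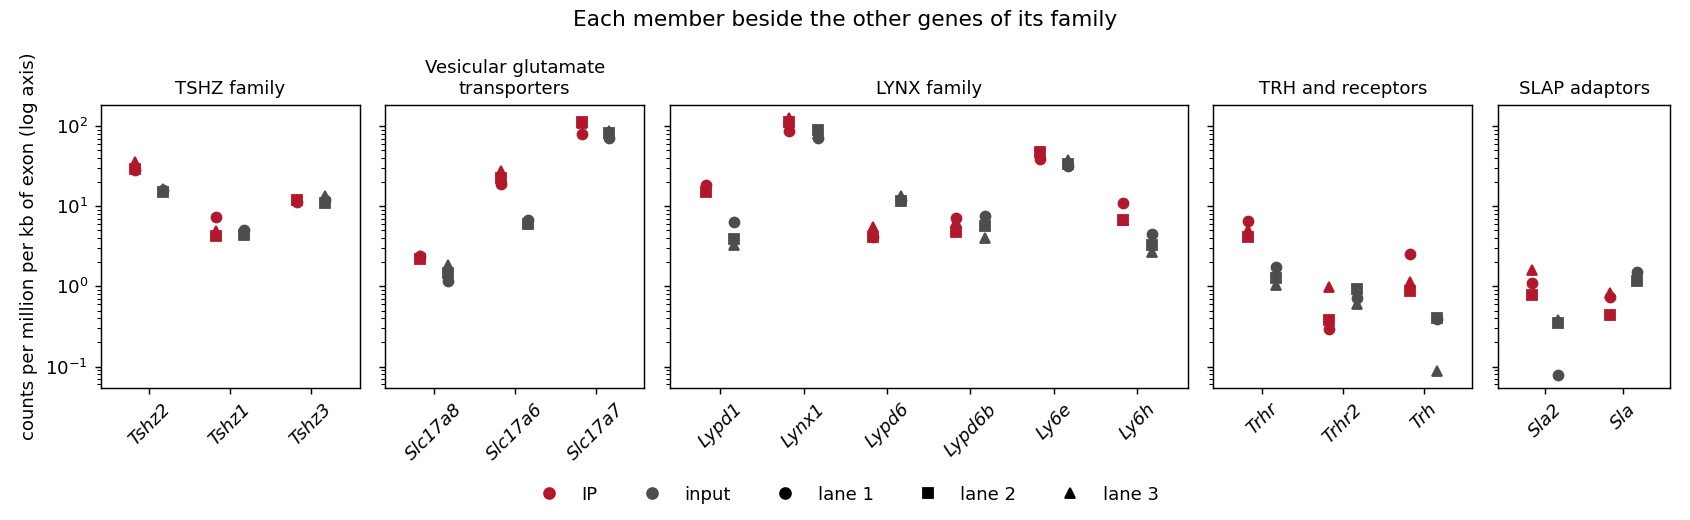
TMM-scaled CPM per kilobase of exon (log axis) in each IP (red) and input (grey) library, with 1 symbol per lane, for each near-projecting gene and the other genes of its family. Tshz2 and Lypd1 lie higher in all IP libraries than in all inputs while Tshz3 overlaps and Lypd6 lies lower in IP; Sla2 and Sla differ from input in opposite directions.

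Per kilobase of exon, the members' levels in IP kept 1 order, Tshz2, Lypd1, Trhr, Slc17a8 and Sla2, with means of 31.0, 17.01, 5.29, 2.33 and 1.15 CPM per kilobase. No neighbours in that order overlapped over the 3 IP libraries. In input, the means were 15.8, 4.52, 1.36, 1.49 and 0.269 CPM per kilobase, and Trhr and Slc17a8 overlapped. Trhr thus stood above Slc17a8 in every IP library, and the pair could not be ordered in input. With the longest transcript in place of all exons the order in IP was the same, and the level of Tshz2 was 47.5 CPM per kilobase.

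The members' fitted folds differed in size. The exact permutation test used to compare members could not pass with 3 libraries a group, so its outcome does not show that the folds were alike. The log2 ratio of one member to another within a library does not depend on scaling, and 10 such pairs were compared. In 6 of them the ratios of IP and input libraries did not overlap: Tshz2 and Slc17a8, each against Trhr, Sla2 and Lypd1. These pairs reuse the same 5 genes and are not separate observations. Of all pairs of tested genes, 54.3% did not overlap either, so the members' count lies near the background. The log2 ratio of Tshz2 to Lypd1 averaged 1.01 ± 0.23 in IP and 2.01 ± 0.48 in input (SD, n = 3 each). That of Slc17a8 to Lypd1 averaged -3.44 ± 0.10 in IP and -2.14 ± 0.81 in input. Each of the 6 had a two-sided exact permutation p of 0.1, the smallest that 3 against 3 libraries allow, and 0.17 adjusted over the 10 pairs, so no pair could pass.
The ratio of Trhr to Lypd1 differed least. Its log2 value averaged -2.52 ± 0.20 in IP and -2.52 ± 0.12 in input (SD, n = 3 each), with differences within lanes 1, 2 and 3 of 0.36, -0.24 and -0.13. Both genes were highest in input replicate 1 and lowest in input replicate 3 among the inputs. Slc17a8 had the opposite order among the inputs. The ratios of Tshz2 and Slc17a8 to the driver gene Htr4 were lower in every IP library than in any input. Their mean log2 differences were -0.36 and -0.66. Those of Trhr, Sla2 and Lypd1 to Htr4 overlapped between groups (0.63, 0.98 and 0.63). Of all pairs of tested genes 54.3% did not overlap, and the share for ratios to Htr4 alone was not computed.

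**Figure D3:**
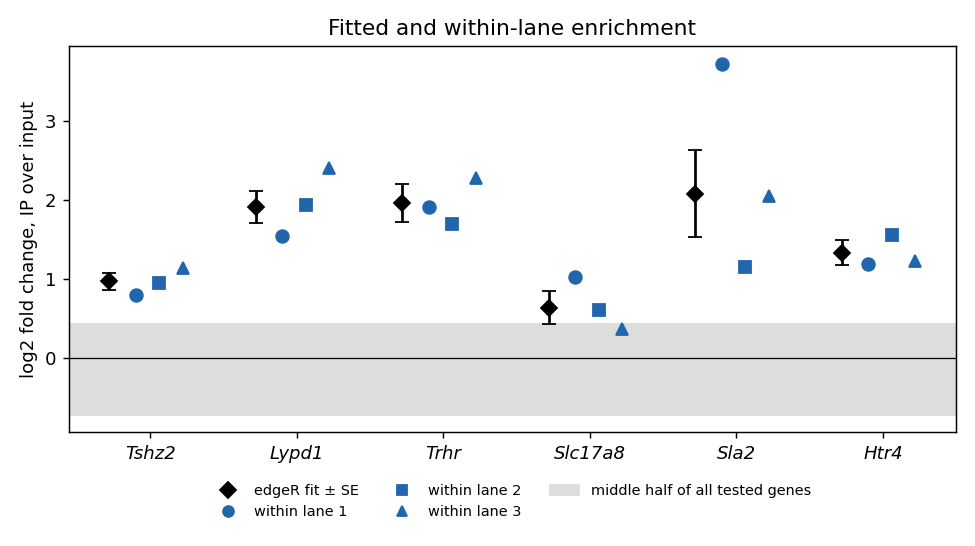
Log2 fold change of IP over input for the 5 near-projecting genes and Htr4: the edgeR estimate with its SE (black) and the value within each of the 3 sequencing lanes (blue). The grey band spans the lower to the upper quartile of all tested genes, -0.72 to 0.43; all lane values lie above 0, and Slc17a8 in lane 3, at 0.37, lies inside the band.

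The 5 genes rose in each lane, with medians of 1.54, 1.15 and 2.06 in lanes 1 to 3. IP replicate 2 had the lowest level among the IP libraries for 4 of the 5 members, all but Tshz2. The same library had the highest summed level of 8 hippocampal neuron genes, with 104, 264 and 85.7 CPM in IP replicates 1 to 3, against 58.3, 68.2 and 47.0 CPM in inputs. In this list, 3 genes were higher and 1 lower, and its most abundant gene, the transcription factor gene Prox1, had 78.1, 192 and 69.3 CPM in IP. Without IP replicate 2 all 5 members were still called, with a median log2 fold change of 1.997. Of 14 striatal projection neuron genes, 12 were higher and 1 lower, led by the enkephalin gene Penk and the adenosine receptor gene Adora2a (log2 fold changes 2.45 and 2.42), with a summed level of 1603 to 1995 CPM in IP and 859 to 972 CPM in input. Of 8 genes of amygdala and claustrum, 2 were higher and 1 lower, with 1055 to 1221 CPM in IP and 818 to 868 CPM in input. The part of neurons from these regions in the members' results was not tested.
Glial RNA went down, with 10 of 10 astrocyte, 10 of 10 oligodendrocyte and 10 of 10 microglial genes lower in IP. Of 9 tested endothelial genes, 6 were lower and 3 did not pass. Among 10 pan-neuronal genes 8 were higher and 1 lower, with a median log2 fold change of 0.44 and a range of -1.18 to 1.43. The log2 fold changes of Slc17a8 and Tshz2, 0.64 and 0.97, lay within that range. Those of Lypd1, Trhr and Sla2, 1.91, 1.96 and 2.08, lay above it.

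A further list of 8 genes connected with near-projecting cells was read beside the members. Some of its genes, such as Cpne7, Met and Nefl, serve in names of mouse near-projecting clusters. In IP 4 were higher and 0 lower, with a median log2 fold change of 0.62. Vwc2l, a secreted protein gene, had 86.9, 69.9 and 92.0 CPM in IP replicates 1 to 3, against 28.8, 21.4 and 30.4 CPM in inputs (log2 fold change 1.63, SE 0.15, edgeR adjusted p = 8.9e-06). The neurofilament gene Nefl, also on the pan-neuronal list, rose 1.39 and the thyroid hormone-binding gene Crym, also on the corticothalamic list, 1.23 on the log2 scale (edgeR adjusted p = 1.6e-06 and 4.2e-05). Cpne7 was called (log2 fold change 0.80, edgeR adjusted p = 0.023) but lost its call without any of 4 libraries, IP replicates 1 and 2 and input replicates 2 and 3 (edgeR adjusted p = 0.072, 0.059, 0.072 and 0.098).
The other 4 did not pass. Rapgef3 averaged 3.79 ± 0.47 CPM in IP and 3.70 ± 1.12 CPM in input (SD, n = 3 each, edgeR adjusted p = 0.93). The receptor tyrosine kinase gene Met had 10.7, 3.17 and 11.6 CPM in IP replicates 1 to 3, against 8.39, 6.34 and 6.59 CPM in inputs, and Nxph2 had 3.07, 1.02 and 3.12 CPM against 2.42, 1.69 and 2.03 CPM (edgeR adjusted p = 0.62 and 0.72). Without IP replicate 2, Met was called higher (log2 fold change 0.66, edgeR adjusted p = 0.028). In both genes IP replicate 2 lay below all inputs and the other IP libraries above them. Tph2 was covered by 8, 15 and 28 reads in IP libraries and 9, 8 and 8 in inputs (edgeR adjusted p = 0.69).

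Markers of the neighbouring projection neurons of layers 5 and 6 were read beside these values. Of 12 layer 5 pyramidal tract genes, 10 were higher and 1 lower, with a median log2 fold change of 0.79 and a range of -1.21 to 2.07. The transcription factor gene Pou3f1 and the sulfotransferase gene Chst8 were the highest (log2 fold changes 2.07 and 2.02), and the sulfatase gene Sulf1 was lower (-1.21). Their edgeR adjusted p was 1.7e-06, 0.00013 and 0.0022. Of 8 layer 6 corticothalamic genes, 6 were higher and 1 lower (median 0.77), led by the neurotensin receptor gene Ntsr1 (log2 fold change 1.53, edgeR adjusted p = 0.00038). The lower one was Sla, the relative of Sla2. Of 7 layer 5 intratelencephalic genes, 2 were higher, Etv1 and Fam19a1 (log2 fold changes 0.97 and 0.48), and 1 lower, Deptor (-0.98), with a median of -0.37. Of 6 layer 6b genes 2 were higher and 1 lower (median -0.016). Layer 4 had 0 of 6 higher and 4 lower (median -0.80), with the receptor gene Rorb at -3.21, and layer 2/3 had 3 of 10 higher and 5 lower (median -0.030). The median of the 5 members, 1.91, was no higher than that of the tested cholinergic genes (1.99) and of the hippocampal genes (1.92). Of those 8 hippocampal genes 3 were higher, 1 was lower and 4 did not pass. Their summed level was 264 CPM in IP replicate 2, against 104 and 85.7 CPM in IP replicates 1 and 3. The hippocampal median without that library was not computed, so the likeness of the 2 medians carries little weight. The striatal projection neuron genes had a median of 1.54. The median was 0.53 for interneuron genes, 0.21 for amygdala and claustrum and -0.17 for serotonergic genes. The lists differ in size and were not compared by a test.

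**Figure D4:**
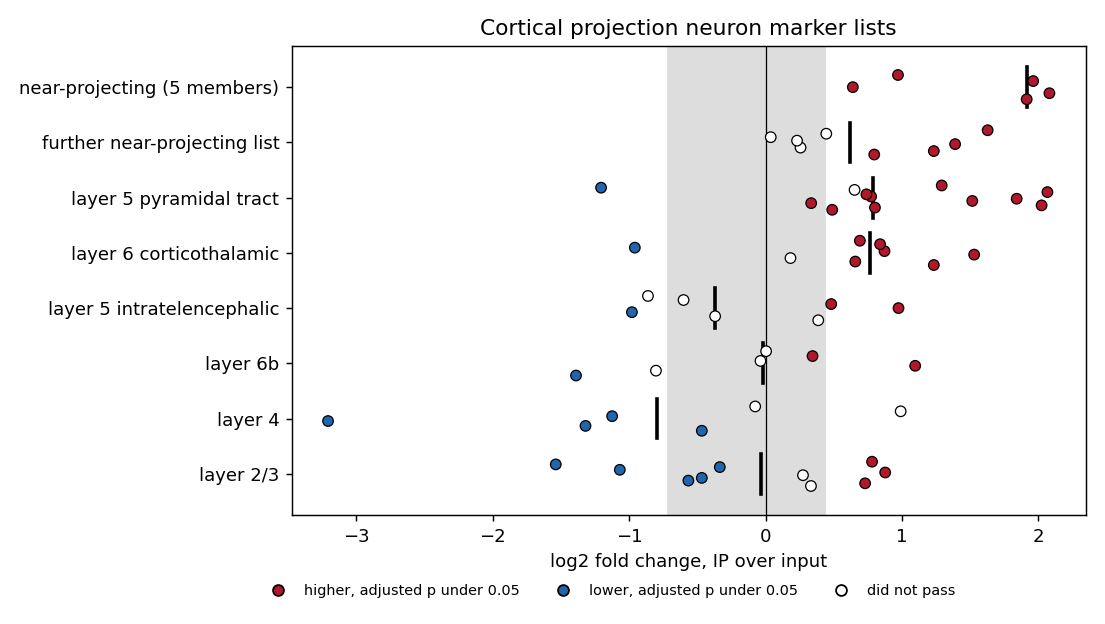
Log2 fold change of IP over input for every tested gene of 8 lists of cortical projection neuron markers; points are genes, filled where the edgeR adjusted p was under 0.05, and vertical bars are list medians. The grey band spans the quartiles of all tested genes, and the 5 near-projecting genes, from 0.64 to 2.08, lie to its right.

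The genes whose levels followed a member most closely over the 6 libraries were found among 9669 other tested genes with a mean of at least 5 CPM, by the root-mean-square difference of centred log2 CPM. Lypd1 and Trhr shared their closest gene, Chst8, at 0.0647 and 0.155. Chst8 had 10.8, 9.22 and 9.52 CPM in IP replicates 1 to 3, against 3.40, 2.11 and 1.78 CPM in inputs, and like Lypd1 and Trhr it was highest in input replicate 1 and lowest in input replicate 3 among the inputs. The next were Ndn for Lypd1 (0.159) and Cox5a for Trhr (0.159). Tshz2 was closest to Tox and Syt5 (0.0373 and 0.0513), and Slc17a8 to Homez and Nkrf (0.0655 and 0.0667). Sla2 had no close match among these candidates: its nearest genes, Gadd45b and Grpr, differed by 0.685 and 0.686. Sla2 itself averaged 3.58 CPM in IP and 0.835 CPM in input, so genes as scarce as Sla2 were not searched. With 6 libraries in 2 groups, such likeness is a description.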

How the data were processed

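RNA of 3 IP and 3 input libraries was sequenced. The authors deposited raw read counts per gene symbol, 1 file per library. Per the submitters' processing notes, STAR 2.0.0e, HTSeq and the build mm10 were used; the HTSeq version, annotation and strand setting: not given in the sources used here. Library sizes exclude entries that name no gene. Of all listed reads, those outside genes made up 8.60% to 8.92% in IP and 16.7% to 18.1% in input, those matching several genes 1.77% to 1.91% in IP and 8.12% to 9.83% in input, and those aligned to several places 32.9% to 35.7% in IP and 21.1% to 23.3% in input.

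The test was edgeR 4.0.16 quasi-likelihood (R 4.3.3) with TMM scaling, filterByExpr, a group term and Benjamini-Hochberg adjustment over 16506 genes, two-sided, called at an adjusted p under 0.05. SE values come from the test statistic. The test was also run on simulated counts with far fewer changed genes than were called here. No conclusion is drawn from that run. The chi-square per degree of freedom between libraries of a group was 22.0 to 65.2, so none were copies.

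Replicate numbers equal sequencing lanes in the labels. Deviations of same-numbered libraries correlated at 0.043 to 0.087, against -0.057 to 0.0014 otherwise, and a fit with a replicate block was an alternative. Others were DESeq2 1.42.0, limma-voom (limma 3.58.1), RLE factors, total gene counts, no filter, at least 1 CPM in 3 libraries, and leaving out each library. The 5 members and the gene lists were chosen with earlier results of these data known. Genes named are the members, Htr4, any gene of the small family lists, for other lists the 2 called genes of largest change, the 1 of largest opposite change and the one of highest mean CPM, and for each member the 2 tested genes of closest pattern (mean of at least 5 CPM, no members or predicted symbols); some of these are given only within counts. Cck, Slc18a3 and Slc5a7 are named besides, and how far their calls depend on the processing is not given here. Exon lengths and positions are from GENCODE M21 (GRCm38) and promoter windows from RefSeq GRCm38.p6.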

Additional observations from a re-analysis of the deposited data

How the results depend on the processing

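Over 13 alternatives each, Tshz2, Trhr, Sla2, Lypd1 and Htr4 kept their direction and their call. Their log2 fold changes ran from 0.87 to 1.06 for Tshz2, 1.78 to 2.20 for Trhr, 1.68 to 2.42 for Sla2, 1.74 to 2.25 for Lypd1 and 1.24 to 1.43 for Htr4. Slc17a8 kept its direction in 13 and its call in 11. With 1 library left out its log2 fold change ran from 0.51 (without input replicate 1, edgeR adjusted p = 0.079) to 0.84 (without input replicate 3), and without input replicate 2 it was 0.62 (edgeR adjusted p = 0.084). The members' median ran from 1.68 to 2.005. With the replicate block, 5 members were called higher (median 1.96; Slc17a8 0.66, edgeR adjusted p = 0.021), with 3607 genes higher and 3966 lower against 3523 and 3864 without it. The block changed no call of a member. Total gene counts gave 4259 genes higher and 3438 lower, with the median of all tested genes at 0.08 in place of -0.015. The number of member pairs without overlap was 6 or 7.

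Among the other named genes, leaving aside Cck, Slc18a3 and Slc5a7, signs turned only for genes that had not passed. With scaling by total gene counts Tshz3 was at 0.046, and with at least 1 CPM in 3 libraries Rapgef3 was at -0.010. With 1 library left out, the lowest and highest log2 fold changes were -0.010 and 0.40 for Tshz1, -0.13 and 0.046 for Tshz3, -0.061 and 0.16 for Trhde, -0.089 and 0.35 for Lypd6b, -0.12 and 0.32 for Rapgef3, -0.029 and 0.66 for Met, and -0.057 and 0.73 for Tph2. The causes were not tested. Depth limits the scarce genes: the lowest library held 9 reads of Sla2, 6 of Trh and 8 of Tph2.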
